A study of Homo sapiens with 6 samples.

Results

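Claudins, occludin and junctional adhesion molecules are the membrane proteins of tight junctions, the seals between neighbouring epithelial cells, and zonula occludens proteins and cingulin tie them to actin from the inside. Each claudin makes the seal more or less permeable in its own way, so that the mixture of claudins sets what passes between cells. Carcinoma cells that have lost epithelial features usually keep few of these proteins. The 9 genes described here were taken by name, by a rule that uses no measured value, though with earlier results of these data known: the claudins CLDN1, CLDN3, CLDN4 and CLDN7, occludin (OCLN), the junctional adhesion molecule F11R, the zonula occludens genes TJP1 (ZO-1) and TJP3 (ZO-3), and cingulin (CGN). All 9 were found among the 61806 genes of the count table.

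The cells were MDA-MB-231, a human line of triple-negative breast cancer with a mesenchymal form. The titles name 3 lines: shNC, taken as the control, shHMGA2-1 and shHMGA2-2. HMGA2 is a chromatin protein that binds AT-rich DNA. The study's methods, and not the titles, describe 2 different hairpins against it, delivered by lentivirus with puromycin selection. The library names in the labels differ from the titles: they read WT for shNC, SH2-C9 for shHMGA2-1 and S231-2671 for shHMGA2-2. The titles were followed, and whether the control cells carried a vector of their own cannot be told from the labels. There were 2 libraries per line, 6 in all. Per the study's methods each knockdown line was grown from a single clone, so that a difference from shNC in either line belongs to that clone and the hairpin together. The sample labels do not say that the 2 libraries of a line came from separate cultures, and p-values then measure only the spread between these libraries, which may be technical.

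In what follows the shNC libraries are the controls. The libraries held 16461178 to 17167293 counts. HMGA2 itself, the target, had 2126 and 2161 counts in the controls, against 858 and 989 with the first hairpin and 435 and 482 with the second, and its log2 fold change against shNC was -1.29 ± 0.09 in shHMGA2-1 and -2.31 ± 0.09 in shHMGA2-2 (± SE throughout), a fall in both (edgeR, adjusted p = 1.98e-11 and 1.81e-16). The keratins KRT8 and KRT18 were present in every library at 1247 to 3417 and 1485 to 1947 counts, while CDH1 (E-cadherin) had 0 to 4 counts and GRHL2, a transcription factor of epithelial junction genes, had 0 to 2. At most 28 counts were spread over 7 leukocyte markers in a library, and 49 to 91 over 6 endothelial markers, most of them from KDR. PECAM1, a defining endothelial marker, had 14 and 11 counts in the controls and 2 and 0 in each knockdown line, at least 4.40-fold lower with those lines set to the floor of 3 counts per library. The fibroblast list summed to 75 and 112 counts in the controls, 247 and 193 in shHMGA2-1 and 144 and 147 in shHMGA2-2, with 5 of its 7 genes at 3 counts or fewer in every library. The other 2 did not move together. COL1A1 had 53 and 78 counts in the controls, 237 and 184 in shHMGA2-1 and 88 and 76 in shHMGA2-2. PDGFRB had 21 and 33 in the controls, 10 and 9 in shHMGA2-1 and 53 and 70 in shHMGA2-2.

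Both CLDN3 and CLDN4 lie on chromosome 7, so that their start regions are worth seeing side by side, and CLDN7 is shown with them because it had the most matches to the E-box. The 250 bases before a transcription start are from RefSeq (GRCh38.p14), 5′ to 3′ in the direction of transcription. Capitals mark CAGGTG or CACCTG, the E-box letters that repressors of the SNAI and ZEB families bind, and GGGCGG or CCGCCC, the GC box.
CLDN3 (chr7:73770271-73770520, minus strand): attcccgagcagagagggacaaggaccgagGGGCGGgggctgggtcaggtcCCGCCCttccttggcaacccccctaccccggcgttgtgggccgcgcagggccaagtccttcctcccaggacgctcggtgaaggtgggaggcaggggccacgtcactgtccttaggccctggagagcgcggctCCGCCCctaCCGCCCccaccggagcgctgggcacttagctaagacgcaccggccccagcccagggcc
CLDN4 (chr7:73830746-73830995, plus strand): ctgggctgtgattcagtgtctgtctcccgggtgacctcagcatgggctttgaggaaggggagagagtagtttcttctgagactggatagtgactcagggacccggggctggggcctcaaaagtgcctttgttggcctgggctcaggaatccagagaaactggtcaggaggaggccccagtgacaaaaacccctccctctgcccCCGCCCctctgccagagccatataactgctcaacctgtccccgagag
CLDN7, second start (chr17:7262479-7262728, minus strand): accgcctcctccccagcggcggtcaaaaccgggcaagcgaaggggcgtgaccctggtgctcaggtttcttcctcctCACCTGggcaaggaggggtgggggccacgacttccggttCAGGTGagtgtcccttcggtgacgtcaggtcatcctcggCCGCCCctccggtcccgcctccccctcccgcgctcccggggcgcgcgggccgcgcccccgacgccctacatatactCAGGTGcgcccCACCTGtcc

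In windows of 300 bases, from 250 before to 50 after each start, 8 of the 9 genes had 14 windows, and F11R had none. The CLDN7 window above held 5 E-boxes, 4 of them before the start, while the other CLDN7 window held 0. CLDN4 held 0 E-boxes and 1 GC box. CLDN3 held 1 E-box, at position 37 after the start, and 6 GC boxes, of which those at 14 and 18 overlap each other. E-boxes stood in 6 of the 14 windows and GC boxes in 11, against 20.6% and 45.0% of all 35116 windows of this length, and 5 or more E-boxes in 0.094%. The CLDN7 window was picked for its E-box count, and the OCLN windows overlap each other. These shares are thus given for description and are no test. TATAAA, the TATA box, and AATATT, an AT-rich motif, were in 0 of the 14, against 11.5% and 6.96% of all windows. Both strands were searched. By AT content the 14 windows ran from 24.7% to 64.3%, beside a median of 41.3% over all windows.

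The most abundant of the 9 genes was TJP1, at 13.1 ± 0.69 FPKM in shNC (SD, n = 2), followed by CLDN1 at 5.20 ± 0.66 and CLDN4 at 3.04 ± 0.028. FPKM divides a count by exonic length and library total, so that levels of different genes can be compared. OCLN at 1.33, CLDN7 at 0.995, F11R at 0.805 and CGN at 0.365 came next, and CLDN3 (0.115) and TJP3 (0.080) were last. In shNC each gene's 2 libraries stood clear of those of the next gene in this order, except for CLDN3 and TJP3, whose values overlapped. TJP1 and CLDN1 were above the median of detected protein-coding genes, 3.48 to 3.72 FPKM, in all 3 lines, and the other genes were below it.

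The order differed in the knockdown lines. TJP1 and CLDN1 stayed first and second by mean FPKM, and CLDN4 went from the third place in shNC to the seventh in both knockdown lines, where its values overlapped those of CGN. The third place was taken by F11R in shHMGA2-1 (2.09 FPKM) and by CLDN7 in shHMGA2-2 (2.53 FPKM). CLDN3 reached 0.620 FPKM in shHMGA2-1 and 1.88 in shHMGA2-2.

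**Figure D1:**
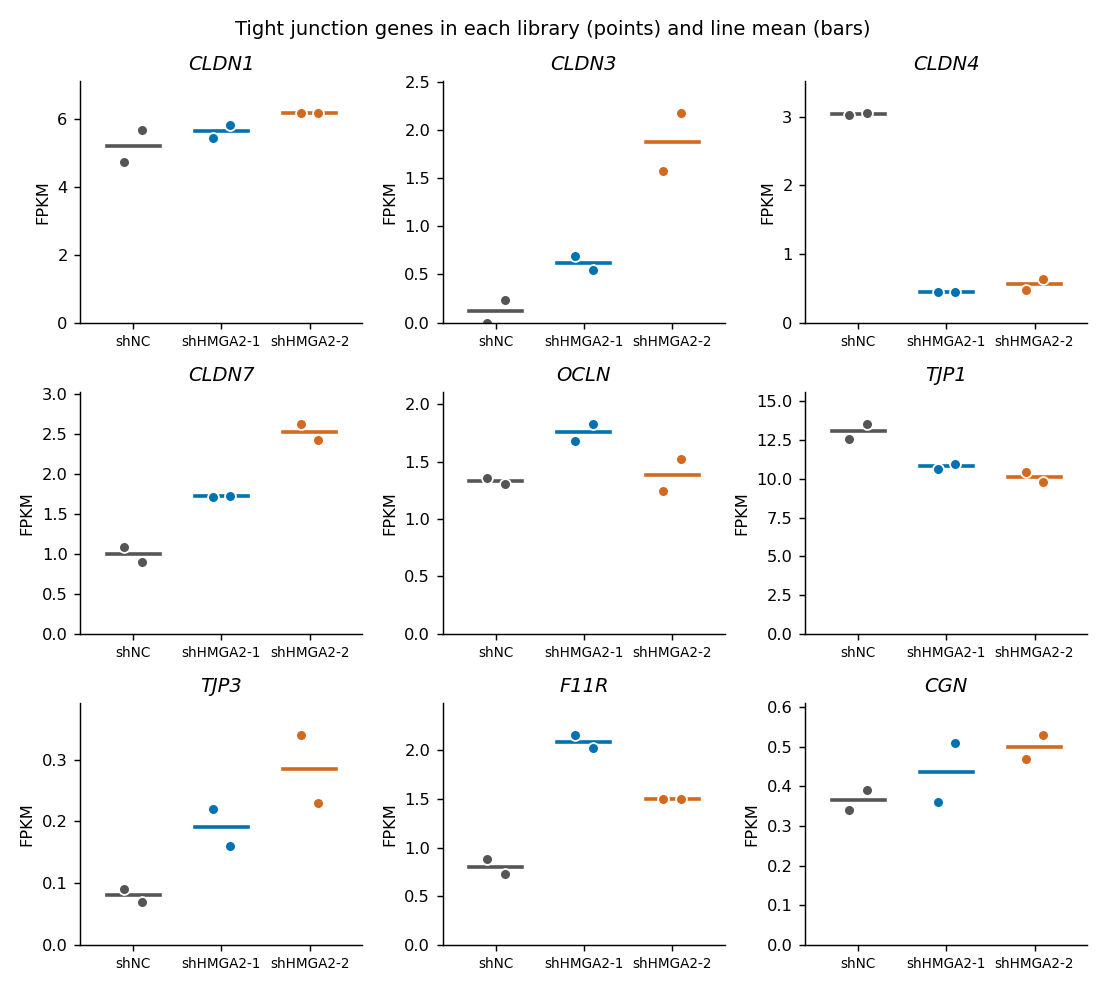
Levels in FPKM (y axis, from 0, a different range in each panel) of the 9 tight junction genes in the shNC, shHMGA2-1 and shHMGA2-2 lines; points are single libraries and horizontal bars the mean of 2. CLDN4 is at 3.02 and 3.06 in shNC and between 0.45 and 0.63 in the 4 knockdown libraries, while CLDN3 and CLDN7 are lowest in shNC and highest in shHMGA2-2.

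Each line was set against shNC with edgeR (quasi-likelihood), and a gene was called when its p, adjusted by Benjamini-Hochberg for the 16110 genes tested, was under 0.05. In shHMGA2-1, 4 of the 9 genes rose (CLDN3, CLDN7, OCLN, F11R), 2 fell (CLDN4, TJP1) and 3 were not called, where 33.5% of all genes tested were called (15.8% higher and 17.7% lower). In shHMGA2-2, 4 rose (CLDN3, CLDN7, TJP3, F11R), 2 fell (CLDN4, TJP1) and 3 were not called, where 58.8% of all genes were called (29.5% higher and 29.2% lower). Of all calls in shHMGA2-1, 47.2% were higher, and 58.8% with upper quartile factors in place of TMM. With a change of at least 2-fold also required, 3 genes passed in shHMGA2-1 (CLDN3, CLDN4, F11R; 8.49% of all genes) and 4 in shHMGA2-2 (CLDN3, CLDN4, CLDN7, TJP3; 21.3%). The median log2 fold change of the 9 genes was 0.34 and 0.33 in the 2 lines, beside 0.01 and 0.03 over all genes. CLDN3 and TJP3 passed the filter on low counts only through the knockdown libraries, where they are higher. Their rises are thus no support for the counts, or for the medians of the 9 genes, given above. Of the other 7 genes, 3 rose and 2 fell in shHMGA2-1, and 2 rose and 2 fell in shHMGA2-2. Both lines were compared with the same shNC libraries.

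**Figure D2:**
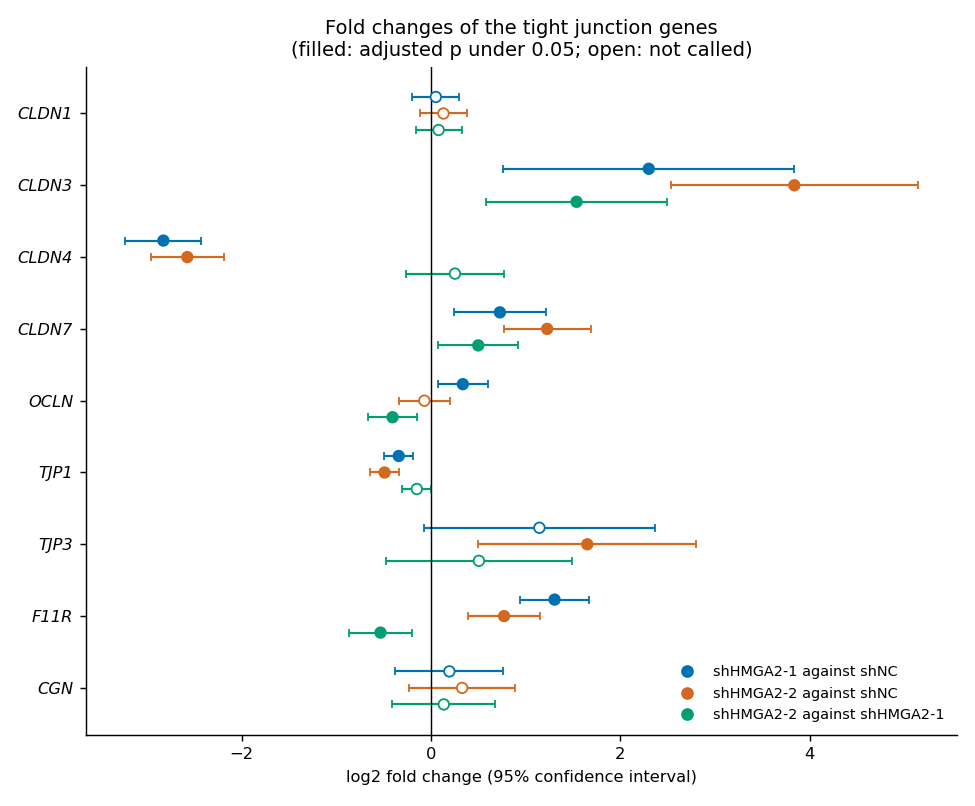
Fitted log2 fold changes (x axis, points) with 95% confidence intervals (lines) of the 9 tight junction genes for shHMGA2-1 against shNC, shHMGA2-2 against shNC and shHMGA2-2 against shHMGA2-1; filled points passed an adjusted p of 0.05. CLDN4 lies at -2.83 and -2.57 against shNC with narrow intervals, and CLDN3 at 2.30 and 3.84 with wide ones.

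CLDN4 is a claudin of simple epithelia that tightens the barrier. It had 241 and 244 counts in the controls, 36 and 36 in shHMGA2-1 and 37 and 49 in shHMGA2-2. Every knockdown library was below both controls, with no overlap. CLDN4 fell by 2.83 ± 0.19 in shHMGA2-1 (adjusted p = 3.08e-11, edgeR) and fell by 2.57 ± 0.19 in shHMGA2-2 (adjusted p = 1.92e-11). On the scale of limma, log2(FPKM + 1), which compresses low levels, CLDN4 changed by -1.48 and -1.38, both called. The knockdown lines were not called different from each other: the log2 difference was 0.25, with a 95% interval from -0.26 to 0.77. Since this is bulk RNA, fewer cells with a transcript and less of it per cell cannot be told apart, here or for the other genes.

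CLDN3, a barrier-forming claudin close to CLDN4 in sequence, went the other way. It had 0 and 5 counts in the controls, 15 and 12 in shHMGA2-1 and 33 and 46 in shHMGA2-2. The 3 lines did not overlap, at low counts throughout. CLDN3 rose by 2.30 ± 0.74 in shHMGA2-1 (adjusted p = 0.0192) and by 3.84 ± 0.63 in shHMGA2-2 (adjusted p = 1.27e-05, edgeR), and it was 1.54 ± 0.46 higher in shHMGA2-2 than in shHMGA2-1 (adjusted p = 0.00777). In shHMGA2-1 the call was lost without shNC replicate 1 (log2 change 1.33, adjusted p = 0.201), without shHMGA2-1 replicate 1 (adjusted p = 0.0630) and in DESeq2 (adjusted p = 0.0592). In shHMGA2-2 it was 2.86 without shNC replicate 1. Without shNC replicate 2 the control had 0 counts and the fit gave 6.75 and 8.29, values that depend on the prior count of the fit. With no filter on low counts the adjusted p was 0.00345 and 2.23e-11. The difference between the knockdown lines was lost without shHMGA2-2 replicate 2 (adjusted p = 0.114).

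The table places CLDN3 at 73768997 to 73770270 on the minus strand of chromosome 7 and CLDN4 at 73799542 to 73832690 on the plus strand (GRCh38). By these edges the gap between them is 29271 bases, and 0 annotated genes lie wholly inside it. The CLDN4 start whose sequence is shown above, at 73830996, lies inside the CLDN4 span. The starts shown for these genes are thus farther apart than the gap. CLDN3 and CLDN4 changed in opposite directions in both lines.

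CLDN7, which is found along the sides of epithelial cells as well as in the junction, had 46 and 38 counts in the controls, 73 and 74 in shHMGA2-1 and 108 and 100 in shHMGA2-2. The lines stood apart in that order with no overlap. CLDN7 rose by 0.73 ± 0.23 in shHMGA2-1 (adjusted p = 0.0182) and by 1.23 ± 0.22 in shHMGA2-2 (adjusted p = 4.59e-05, edgeR). In shHMGA2-1 the call was lost without shNC replicate 2 (adjusted p = 0.150), without shHMGA2-1 replicate 2 (adjusted p = 0.0552) and in DESeq2 (adjusted p = 0.148). The difference between the knockdown lines, 0.50 ± 0.20 (adjusted p = 0.0454), was lost when any 1 of the 4 knockdown libraries was left out (0.0768 to 0.199). The gene, at 7259903 to 7263983 on the minus strand of chromosome 17, shares 38 bases with ELP5 on the other strand, which had 490 to 652 counts. ELP5 also rose in shHMGA2-2, by 0.28 ± 0.10 (adjusted p = 0.017, edgeR), and was not called in shHMGA2-1 (0.07). Its part in the CLDN7 counts was not tested. A protein gene that covers 2187 bases of CLDN7 (ENSG00000262302) had 0 or 1 counts. The strand setting of the counting is not given in the sources used here.

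CLDN1, a claudin needed for the barrier of the skin, was the most abundant of the 4 claudins and is an example of a gene that was not called. It had 291 and 349 counts in the controls, 339 and 361 in shHMGA2-1 and 369 and 372 in shHMGA2-2. The shHMGA2-1 values overlapped those of shNC, while both shHMGA2-2 values were above them. The log2 changes were 0.05 (95% interval -0.20 to 0.30, adjusted p = 0.790) and 0.13 (-0.11 to 0.38, adjusted p = 0.358, edgeR). Both turned negative without shNC replicate 1, to -0.08 and -0.0023.

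Occludin, a membrane protein that spans the membrane several times, had 260 and 248 counts in the controls, 324 and 353 in shHMGA2-1 and 229 and 283 in shHMGA2-2. The shHMGA2-1 libraries were above all others, while the shHMGA2-2 libraries lay on either side of the controls. OCLN rose by 0.34 ± 0.13 in shHMGA2-1 (adjusted p = 0.0438, edgeR), near the threshold, and this call was lost in 5 of the 6 fits that left out a library (adjusted p 0.0546 to 0.225) and in DESeq2 (0.230). In shHMGA2-2 the change was -0.07 (95% interval -0.34 to 0.20, adjusted p = 0.669). OCLN was 0.41 ± 0.13 lower in shHMGA2-2 than in shHMGA2-1 (adjusted p = 0.00976), a call lost without shHMGA2-1 replicate 2 (adjusted p = 0.0599) or shHMGA2-2 replicate 1 (adjusted p = 0.157). Its near-copy OCLNP1, a pseudogene, had 2 to 11 counts.

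F11R encodes JAM-A, an immunoglobulin-type adhesion molecule that takes part in cell polarity. It had 76 and 63 counts in the controls, 188 and 175 in shHMGA2-1 and 125 and 126 in shHMGA2-2. Here shHMGA2-1, and not shHMGA2-2, held the highest values, and the 3 lines did not overlap. F11R rose by 1.30 ± 0.18 in shHMGA2-1 (adjusted p = 2.2e-06) and by 0.77 ± 0.18 in shHMGA2-2 (adjusted p = 0.00085, edgeR). It was 0.53 ± 0.16 lower in shHMGA2-2 than in shHMGA2-1 (adjusted p = 0.00747), which was lost without shHMGA2-2 replicate 2 (adjusted p = 0.0518) and in DESeq2 (0.105). The readthrough gene that covers 23387 bases of F11R (ENSG00000270149) had 0 to 4 counts.

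TJP1 encodes ZO-1, the scaffold that binds claudins and occludin and links them to actin. It had 2419 and 2606 counts in the controls, 2070 and 2120 in shHMGA2-1 and 1943 and 1836 in shHMGA2-2. All knockdown libraries were below both controls, by a small margin relative to the level. TJP1 fell by 0.34 ± 0.07 in shHMGA2-1 (adjusted p = 0.000811) and fell by 0.49 ± 0.07 in shHMGA2-2 (adjusted p = 3.84e-06, edgeR). The call in shHMGA2-1 was lost without shNC replicate 2 (adjusted p = 0.0570). Between the knockdown lines the difference was -0.15 (95% interval -0.30 to 0.0034, adjusted p = 0.0977), which was called without shHMGA2-1 replicate 1 (0.0322). A pseudogene on the other strand within TJP1, HMGN2P5, had 45 to 134 counts and rose in shHMGA2-2 by 1.26 ± 0.21 (adjusted p = 1.33e-05).

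TJP3 encodes ZO-3, a scaffold of the same family, and was near the limit of detection. It had 6 and 5 counts in the controls, 15 and 11 in shHMGA2-1 and 22 and 15 in shHMGA2-2. Both knockdown lines were above shNC and overlapped each other. The change was 1.14 ± 0.59 in shHMGA2-1 (adjusted p = 0.145, not called), and TJP3 rose by 1.65 ± 0.56 in shHMGA2-2 (adjusted p = 0.0136, edgeR). That call was lost without shNC replicate 2 (adjusted p = 0.0744), without shHMGA2-2 replicate 1 (adjusted p = 0.119) and in DESeq2 (adjusted p = 0.124), and it was 0.0131 with no filter on low counts. TJP3 shares 42 bases with APBA3, which had 247 to 353 counts. APBA3 also rose in shHMGA2-2, by 0.33 ± 0.12 (adjusted p = 0.0251, edgeR), and was not called in shHMGA2-1 (0.04). Its part in the TJP3 counts was not tested.

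Cingulin, a cytoplasmic protein that binds zonula occludens proteins and myosin, was not called in any comparison. It had 38 and 44 counts in the controls, 41 and 58 in shHMGA2-1 and 51 and 58 in shHMGA2-2. The log2 changes were 0.19 (95% interval -0.38 to 0.76, adjusted p = 0.639) and 0.33 (-0.23 to 0.89, adjusted p = 0.312, edgeR). The first turned to -0.09 without shHMGA2-1 replicate 2.

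Between the knockdown lines, 2 of the 9 genes were higher in shHMGA2-2 (CLDN3, CLDN7) and 2 lower (OCLN, F11R), where 50.2% of all genes tested were called (24.5% higher and 25.7% lower). DESeq2 called 0 of the 9 in this comparison (3 at an unadjusted p under 0.05) and limma on log2(FPKM + 0.1) called 1. Leaving out a library gave 1 to 4: 2 without shHMGA2-1 replicate 2 or without shHMGA2-2 replicate 1, and 1 without shHMGA2-2 replicate 2.

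With the 4 knockdown libraries taken as a single group against shNC, only CLDN4 was called by edgeR (log2 change -2.69 ± 0.19, adjusted p = 0.0029), where 5.26% of all genes were. In this fit the difference between the lines counts as error. F11R (1.06, adjusted p = 0.0700), TJP1 (-0.41, adjusted p = 0.0675), CLDN7 (1.00, adjusted p = 0.0915), TJP3 (1.42, adjusted p = 0.130) and CLDN3 (3.26, adjusted p = 0.135) were not called. Without shNC replicate 1 or shNC replicate 2 the call of CLDN4 was lost (adjusted p = 0.0825 and 0.0820), so that 0 genes were called, with 4 and 2 of the 9 at an unadjusted p under 0.05. DESeq2 called 5 in the same comparison: CLDN3, CLDN4, CLDN7, TJP1 and F11R. The share of all genes that DESeq2 called is not given here, so that this count is no result about these genes alone.

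The table holds 24 claudin genes. Of these, 8 had 0 counts in every library, which allows up to 0.175 to 0.182 CPM (counts scaled by library total), 2 reached at most 3 counts, and 5 passed 100 counts in a library. The sum over all claudins was 30.9 ± 0.40 FPKM in shNC, 28.9 ± 0.47 in shHMGA2-1 and 31.9 ± 0.42 in shHMGA2-2 (SD, n = 2). CLDN12, a claudin without the usual anchor for zonula occludens proteins, made up 52.7 ± 2.1% of it in shNC, 49.9 ± 4.7% in shHMGA2-1 and 42.8 ± 0.53% in shHMGA2-2. CLDN4 made up 9.85% in shNC and 1.56% and 1.74% in the knockdown lines. CLDN3 went from 0.376% in shNC to 2.15% in shHMGA2-1 and 5.89% in shHMGA2-2, and CLDN7 from 3.22% to 5.95% and 7.91%.

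**Figure D3:**
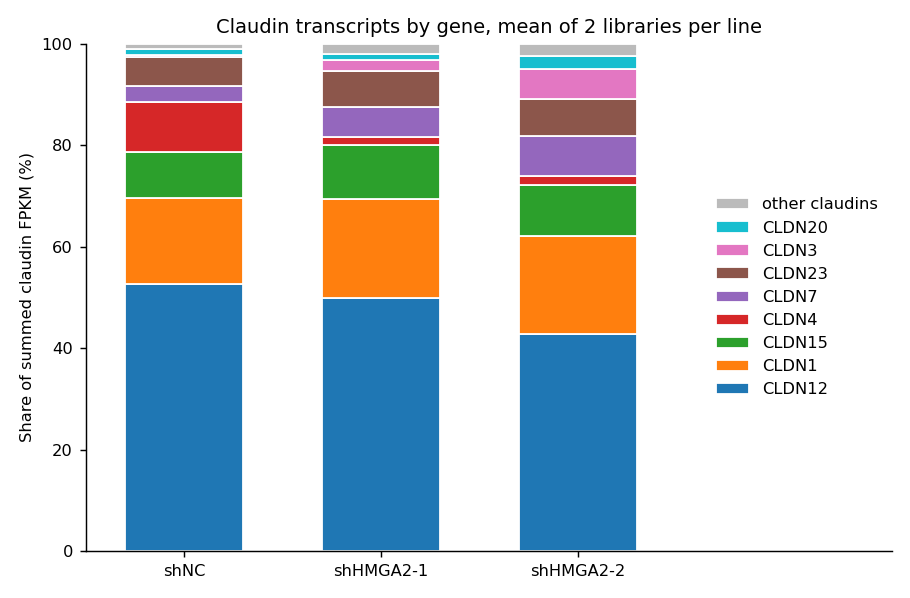
Share of the summed claudin FPKM (y axis, %) taken by each claudin gene, as the mean of 2 libraries in the shNC, shHMGA2-1 and shHMGA2-2 lines; genes that never reach 2% are joined as other claudins. CLDN12 takes 42.8% to 52.7% of each bar, and the CLDN4 segment shrinks from 9.85% to under 2% while those of CLDN3 and CLDN7 widen.

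Around these genes stands a wider list of 67 tight junction genes, of which 46 passed the filter: the 9 genes and 5 other claudins, 5 other membrane proteins, 17 other scaffold and polarity proteins and 10 associated regulators. In shHMGA2-1, 9 of the 46 rose and 17 fell, and in shHMGA2-2, 13 rose and 22 fell, 56.5% and 76.1% against the 33.5% and 58.8% of all genes. The median log2 fold change of the list was 0.01 and -0.10. CLDN3, TJP3, PRKCZ and CLDN11 passed the filter only through knockdown libraries, where they are higher. Their rises are thus no support for these counts or medians. Of the genes outside the 9, 16 changed at least 2-fold in one line or the other, and the 12 with the largest change follow with ARHGAP17, MAGI3, MARVELD2 and VASP left to the plot.

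Among the other membrane proteins all 5 tested were called in both lines, 3 higher and 2 lower, where 33.5% and 58.8% of all genes were called. LSR, which with ILDR proteins seals the corners between cells, had 38 and 30 counts in the controls, 349 and 288 in shHMGA2-1 and 517 and 660 in shHMGA2-2. It rose by 3.14 ± 0.19 and 4.03 ± 0.18 (edgeR, adjusted p = 2.86e-12 and 1.01e-15). ILDR2, of the same family, moved against it with log2 changes of -1.17 ± 0.26 and -1.14 ± 0.26, the first of which was lost in limma (0.0512 and 0.0510). CXADR, an adhesion molecule and virus receptor, had 60 and 60 counts in the controls, 104 and 129 in shHMGA2-1 and 317 and 353 in shHMGA2-2. It rose by 0.88 ± 0.19 and by 2.40 ± 0.17. ESAM, an adhesion molecule known from endothelium and platelets (PECAM1, above, was also lower in both lines, and its part was not tested), had 2805 and 2878 counts in the controls, 2254 and 1977 in shHMGA2-1 and 176 and 201 in shHMGA2-2. On the log2 scale it changed by -0.50 ± 0.08 and -3.99 ± 0.10, both called.

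Of the 17 scaffold and polarity genes, 2 rose and 6 fell in shHMGA2-1, and 4 rose and 9 fell in shHMGA2-2. These are 47.1% and 76.5% called, against 33.5% and 58.8% of all genes. PARD3, the scaffold of the PAR polarity complex, had 4050 and 4050 counts in the controls, 2351 and 2100 in shHMGA2-1 and 1034 and 927 in shHMGA2-2, with log2 changes of -0.94 ± 0.08 and -2.13 ± 0.08, both called. PRKCZ, an atypical protein kinase C that works in the same complex, had 6 and 1 counts in the controls, 4 and 0 in shHMGA2-1 and 150 and 187 in shHMGA2-2, where it rose by 5.46 ± 0.41 (adjusted p = 3.6e-11, edgeR). PRKCZ passed the filter only through shHMGA2-2, and with shNC replicate 1 left out the value was 7.15, with replicate 2 left out 4.70. PARD6G, a further subunit, rose by 1.02 ± 0.19 and by 1.45 ± 0.18. PATJ, a scaffold of the Crumbs complex, rose by 0.69 ± 0.18 and by 1.60 ± 0.17, and its call in shHMGA2-1 was lost without shNC replicate 1 (adjusted p = 0.0532). AFDN, which joins nectins to actin, changed by -1.30 ± 0.07 and -0.71 ± 0.07 on the log2 scale, both called. CGNL1, a relative of cingulin, had 24 and 15 counts in the controls, 20 and 32 in shHMGA2-1 and 6 and 2 in shHMGA2-2, where it fell by 2.33 ± 0.61 (adjusted p = 0.00213). That change was -3.31 without shHMGA2-2 replicate 1 and -1.74 without replicate 2 of that line, and the call was lost in limma on log2(FPKM + 1) (0.0795).

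The 10 regulators gave 0 that rose and 6 that fell in shHMGA2-1, and 1 that rose and 8 that fell in shHMGA2-2. These are 60% and 90% called, against 33.5% and 58.8% of all genes, of which 17.7% and 29.2% were called lower. AMOT, which binds PATJ and restrains the growth regulator YAP, had 331 and 289 counts in the controls, 229 and 173 in shHMGA2-1 and 1 and 15 in shHMGA2-2. On the log2 scale it changed by -0.70 ± 0.18 and -5.34 ± 0.31, both called by edgeR. The first call was lost without shNC replicate 1 (adjusted p = 0.0798) and in DESeq2 (adjusted p = 0.697), and without shHMGA2-2 replicate 2 the second value was -8.17 (-4.46 without replicate 1). Among the other claudins, CLDN12 had log2 changes of -0.24 ± 0.08 and -0.37 ± 0.08 (adjusted p = 0.0314 and 0.000532, edgeR), of which the first was lost in 5 of the 6 fits that left out a library (0.0638 to 0.290) and was -0.12 without shHMGA2-1 replicate 1. CLDN11 had 2 and 3 counts in the controls, 3 and 0 in shHMGA2-1 and 25 and 10 in shHMGA2-2, and it passed the filter only through shHMGA2-2. There it was at least 5.55-fold higher than shNC when shNC is set to a floor of 3 counts per library (adjusted p = 0.00417, edgeR). That call was lost without shHMGA2-2 replicate 1 (adjusted p = 0.135) and in DESeq2 (adjusted p = 0.0693).

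**Figure D4:**
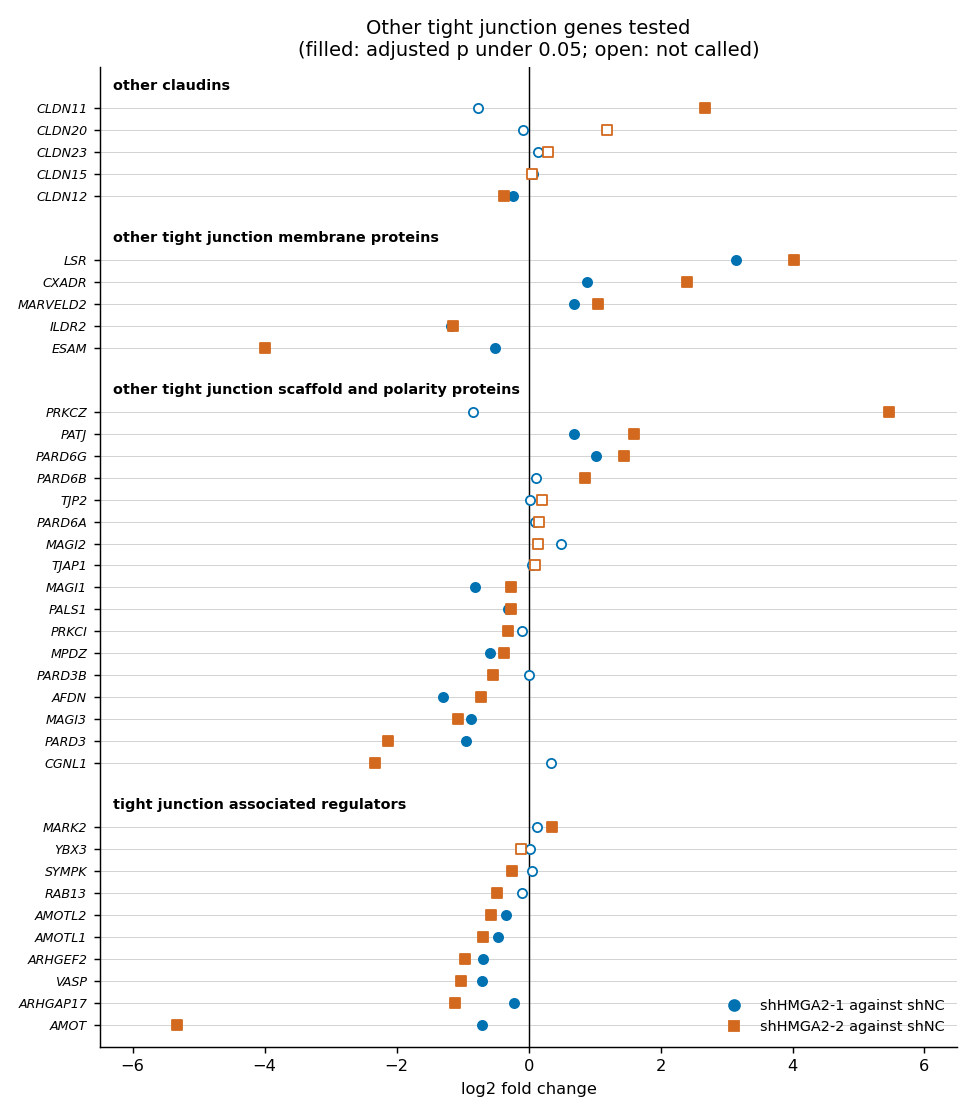
Fitted log2 fold changes (x axis) of the 37 other tight junction genes tested, by role and ordered by the value in shHMGA2-2; circles stand for shHMGA2-1 against shNC and squares for shHMGA2-2 against shNC, filled where the adjusted p was under 0.05. LSR at 4.03 and PRKCZ at 5.46 lie farthest to the right and AMOT at -5.34 farthest to the left; the value of CLDN11 is a fit against 3 counts or fewer and is no bound.

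Repressors of epithelial junction genes and epithelial partners were read beside these genes, and their part in the results was not tested. ZEB1, which represses junction genes through E-boxes, had 5132 and 5086 counts in the controls, 4078 and 4677 in shHMGA2-1 and 1904 and 1919 in shHMGA2-2. On the log2 scale it changed by -0.30 ± 0.07 and -1.50 ± 0.07 (edgeR, adjusted p = 0.0019 and 9.94e-15). The first was -0.19 without shHMGA2-1 replicate 1 and was lost in limma with a pseudocount of 1 or 0.1 (0.0548 and 0.0544). ZEB2 fell by 1.28 ± 0.12 in shHMGA2-2 and was not called in shHMGA2-1 (-0.26, adjusted p = 0.0820), except without its replicate 2 (0.0405). SNAI2, a repressor that binds the same letters, had 109 and 112 counts in the controls, 95 and 86 in shHMGA2-1 and 492 and 483 in shHMGA2-2, a rise of 2.06 ± 0.13 there against -0.37 (adjusted p = 0.0909) in shHMGA2-1. SNAI1 had 0 to 12 counts and TWIST1 0 in every library, and neither passed the filter. The 8 repressors together summed to 59.7 and 61.2 FPKM in the controls, 47.5 and 49.5 in shHMGA2-1, and 36.3 and 38.5 in shHMGA2-2. Most of each sum was ZEB1 and TCF3, another of the 8. By mean FPKM in shNC, shHMGA2-1 and shHMGA2-2, ZEB1 stood at 34.8, 29.5 and 13.4, and TCF3 at 22.5, 16.3 and 14.2. SNAI2 went the other way in shHMGA2-2, at 8.99 against 1.99 in shNC, so that the sums do not describe every repressor.

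The 12 epithelial partners summed to 55.0 and 56.8 FPKM in the controls, 56.5 and 50.5 in shHMGA2-1, and 67.8 and 72.8 in shHMGA2-2, with CDH1 at 4 counts or fewer throughout. Without KRT8 the sums were 43.6 and 46.1 in the controls, 43.3 and 39.3 in shHMGA2-1, and 40.8 and 42.8 in shHMGA2-2. The members went both ways: in shHMGA2-2, KRT8 rose by 1.25 ± 0.08 and ESRP2, an epithelial splicing factor, by 2.67 ± 0.29, and KRT19, a keratin of simple epithelia, fell by 2.46 ± 0.20. In shHMGA2-1, KRT19 fell by 0.65 ± 0.16 (lost in limma on log2(FPKM + 0.1), 0.0577), while KRT8 (0.09) and ESRP2 (0.78) were not called, the latter being called without shHMGA2-1 replicate 2 (0.0147). EPCAM, an epithelial adhesion molecule that binds CLDN7, had 146 and 127 counts in the controls, 274 and 302 in shHMGA2-1 and 137 and 133 in shHMGA2-2. It rose by 1.00 ± 0.14 in shHMGA2-1 (adjusted p = 6.32e-06, edgeR), and in shHMGA2-2 the change was -0.10 (adjusted p = 0.625). ESRP1, of the same family as ESRP2, had 1 to 10 counts.

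CLDN3 and CLDN4 had the widest range of line means among the 9 genes, 3.41 and 2.76 on the log2 CPM scale. Over the 6 libraries the genes most like CLDN4, among 10886 with a level of at least 5 CPM, were SLIT2 (Pearson r = 0.998), TIGD5 (0.998) and PPP2R3A (0.995). SLIT2, a secreted guidance protein, had 523 and 516 counts in the controls, 50 and 40 in shHMGA2-1 and 52 and 67 in shHMGA2-2, while TIGD5 had 238 and 238 in shNC and 166 to 184 in the knockdown libraries. The genes most like CLDN3 were ENDOV (0.995), PHF8 (0.993) and RNF167 (0.991). PHF8, a histone demethylase, had 793 and 903 counts in the controls, 1059 and 1040 in shHMGA2-1 and 1149 and 1178 in shHMGA2-2. These 6 points come from 3 lines, so that a gene with 3 level steps in the same order scores high whatever its size of change.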

How the data were processed

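RNA of 6 MDA-MB-231 libraries, 2 each of shNC, shHMGA2-1 and shHMGA2-2, was analysed, grouped by sample titles. The authors deposited 1 table with raw read counts and FPKM values per gene. The submitters' processing notes name HISAT2 (version 2.2.1), HTSeq (version 0.6.1) and GRCh38.p13. The annotation and strand setting are not given in the sources used here. The deposited FPKM values were recomputed from the counts, exonic size and library total for 100% of values within 0.0051. Of 61806 genes, 20417 had no symbol, and 0 sample columns were left unused.

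Counts were fitted in edgeR version 4.0.16 (R version 4.3.3) with TMM factors (0.958 to 1.05), filterByExpr by line (16110 genes) and the quasi-likelihood test in a model with 3 groups, or with a single knockdown group. The script was tested on simulated data. The single group had a biological coefficient of variation of 0.291, against 0.0583 with 3 groups. Calls used an adjusted p under 0.05 (Benjamini-Hochberg). A floor of 3 counts stands for the limit a count of 0 allows and covers counting error only. Within lines, chi-square per degree of freedom between libraries was 2.06 in shNC, 6.80 in shHMGA2-1 and 3.10 in shHMGA2-2, so none was counted as a repeat. The lines shared 1 estimate of the spread, so that the wider spread of shHMGA2-1 was not fitted on its own. This limits calls near the threshold in that line.

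The members and lists were chosen with earlier results of these data known. Named outside the members are genes of the wider list past 2-fold in either line (the 12 largest), preset partners and repressors, genes most like CLDN3 and CLDN4, and overlapping genes. CLDN12, KRT8, KRT18, KRT19, ESRP2, TCF3, KDR, PECAM1, COL1A1 and PDGFRB were named with their values already known. As alternatives, DESeq2 version 1.42.0, RLE and upper quartile factors, other filters, limma version 3.58.1 on log2(FPKM + 1) and log2(FPKM + 0.1) of the authors' values, the replicate number as a block, and the omission of each library in turn were used. Applying them to genes outside the 9 was chosen after seeing the data. Promoters were read from RefSeq tables in Python version 3.11.15.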

Additional observations from a re-analysis of the deposited data

Results flagged for a closer look

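Among the 4 knockdown libraries, shHMGA2-2 replicate 2 was highest for CLDN4 at 2.81 CPM, where the nearest library had 2.18 and the farthest 2.07. The 4 libraries come from 2 lines and are not replicates of a single condition. The counts were 49 in this library and 37 in the other shHMGA2-2 library. All 4 values remained far below the 14.9 ± 0.14 CPM of shNC (SD, n = 2).

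By the direct test of shHMGA2-2 against shHMGA2-1 in edgeR, the lines differed for 4 of the 9 genes, where 50.2% of all genes were called. DESeq2 called 0 of the 9. On the log2 scale the differences were 1.54 for CLDN3, 0.50 for CLDN7, -0.41 for OCLN and -0.53 for F11R. Clone and hairpin differ together between these lines, so that a different response to knockdown cannot be told from a difference between clones. HMGA2 itself was lower in shHMGA2-2 (-1.01). Over the wider list, which holds the 9 genes, 12 were higher and 15 lower (58.7% of those tested, against 50.2% of all genes). PRKCZ and CLDN11 passed the filter only through shHMGA2-2, so that their differences are no support for these counts. Among its other genes that changed at least 2-fold from shNC in either line, the difference was above 0 for PRKCZ (6.31), CLDN11 (a fitted 3.44, at least 5.86-fold against the floor), CXADR (1.52), PATJ (0.91), LSR (0.88), AFDN (0.59) and PARD6G (0.43), and below 0 for AMOT (-4.63), ESAM (-3.49), CGNL1 (-2.66), PARD3 (-1.18), ARHGAP17 (-0.88) and VASP (-0.32). PARD6G lost this call without shHMGA2-1 replicate 2 (0.20) or either shHMGA2-2 library, and CLDN11 lost it without shHMGA2-2 replicate 1. For PRKCZ the fit gave 10.4 without shHMGA2-1 replicate 1, where the other library held 0 counts, and AMOT gave -7.46 without shHMGA2-2 replicate 2. Without shHMGA2-1 replicate 1, PARD6G gave 0.70 and CLDN11 7.11, and CGNL1 ran from -3.64 to -2.08 with either shHMGA2-2 library left out. Among repressors and partners it was 2.43 for SNAI2, -1.20 for ZEB1, -1.02 for ZEB2, -1.09 for EPCAM, 1.16 for KRT8, -1.81 for KRT19 and 1.89 for ESRP2.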

How the results depend on the processing

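The number of the 9 genes called was 3 to 6 over all alternatives in shHMGA2-1, 4 to 6 in shHMGA2-2, 0 to 4 between the knockdown lines and 0 to 5 for the single knockdown group. The share of all genes called under each alternative, the replicate block included, is not given here. The counts in this section thus describe only the effect of the processing. DESeq2 gave 3 in shHMGA2-1 and, for the single group, 5 (edgeR: 1), and between the knockdown lines it gave 0 (3 at an unadjusted p under 0.05), where limma on log2(FPKM + 0.1) gave 1. With a library left out the counts were 3 to 5, 5 to 6, 1 to 4 and 0 to 1 in the same order (for shHMGA2-1, 3 without shNC replicate 2). For the wider list between the knockdown lines they were 16 to 28, with 16 without shHMGA2-2 replicate 1. A line left with 1 library is assumed to vary like the others, although the libraries of shHMGA2-1 differed more than those of the other lines. CLDN4 and F11R kept their calls in both lines against shNC under every alternative.

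With a library left out, the log2 change of CLDN1 ran from -0.0786 to 0.189 in shHMGA2-1, from -0.0023 to 0.269 in shHMGA2-2 and from -0.0397 to 0.229 for the single group, below 0 without shNC replicate 1 (in shHMGA2-1 also -0.0111 without its replicate 2). In the same way OCLN ran from -0.215 to 0.0539 in shHMGA2-2, CGN from -0.0941 to 0.437 in shHMGA2-1 and from -0.108 to 0.423 between the knockdown lines, and ILDR2 from -0.216 to 0.240 between them (-0.121 without shHMGA2-1 replicate 2). In shHMGA2-1, PRKCZ ran from -4.90 to 0.842 (0.0951 without its replicate 2), CLDN11 from -4.44 to 0.161 CGNL1 from -0.0574 to 0.708 and KRT8 from -0.0163 to 0.184. In shHMGA2-2, OCLN turned to 0.0451 with upper quartile factors and to 0.0283 and 0.0434 in limma with pseudocounts of 1 and 0.1, and EPCAM to 0.0191, 0.0186 and 0.0241. None of the values that turned was called. The cause was not tested.

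On log2(FPKM + 1), limma gave smaller changes for low genes, such as 0.55 and 1.37 for CLDN3 and 0.78 and 0.47 for F11R, and CLDN3, TJP3 and CGN were left out by a filter of at least 1 FPKM on the mean. Counts near the floor limit CLDN3 and TJP3.

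Upper quartile factors moved the median log2 change of all genes by 0.115 in shHMGA2-2 and the share of calls that were higher from 47.2% to 58.8% in shHMGA2-1 (single group: 44.5% to 55.7%).

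Replicate numbers did not pair the samples (correlations of deviations -0.02, 0.0021 and -0.10). With the replicate block 5, 6 and 3 of the 9 genes were called in shHMGA2-1, shHMGA2-2 and between them, 1 for the single group, and 23, 35 and 25 of the wider list. Under the block OCLN in shHMGA2-1 (adjusted p = 0.0586, edgeR) and CLDN7 between the knockdown lines (0.0604) were no longer called.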

Other observations

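In the table's own annotation, 154 of the 333 genes of the KEGG tight junction term passed the filter. In shHMGA2-1, 22 rose and 41 fell (40.9%, against 33.5% of all genes), and in shHMGA2-2, 35 rose and 62 fell (63.0%, against 58.8%). Some, such as MYH14, passed the filter only through shHMGA2-2, where they are higher, and their rises are no support for these counts. The genes named next were chosen after their values were seen. The non-muscle myosin heavy chain MYH10, a motor of the actin belt beside the junction, had 16 and 22 counts in the controls, 72 and 100 in shHMGA2-1 and 3485 and 3415 in shHMGA2-2, a rise of 2.09 ± 0.24 and 7.42 ± 0.15 on the log2 scale (± SE). A further chain of this kind, MYH14, had 0 and 0 counts in the controls, 3 and 0 in shHMGA2-1 and 191 and 187 in shHMGA2-2, at least 59.6-fold higher than shNC set to 3 counts per library.

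Of the 169 genes of the GO term for bicellular tight junctions, 100 passed the filter, and 21 rose and 33 fell in shHMGA2-1 (54.0%, against 33.5% of all genes), and 28 rose and 48 fell in shHMGA2-2 (76.0%, against 58.8%). Some, such as MAPK15, passed the filter only through knockdown libraries, where they are higher, and their rises are no support for these counts. CLMP, an adhesion molecule related to CXADR, moved against it, with 707 and 684 counts in the controls, 64 and 50 in shHMGA2-1 and 31 and 39 in shHMGA2-2, with log2 changes of -3.69 ± 0.15 and -4.39 ± 0.16. SYNPO, an actin-binding protein, had log2 changes of -1.19 ± 0.16 and -3.74 ± 0.21, from 382 and 315 counts to 19 and 36 in shHMGA2-2.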
